A study of Mus musculus with 16 samples.

Results

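The regions described here are ATAC-seq peaks in and around the olfactory receptor genes of male mouse germ cells. A peak was included when it shared at least 1 bp with the outer bounds of an autosomal gene with an Olfr symbol, extended by 10 kb on each side. Of 302829 peaks in 6 distinct lists, 2673 met this rule: 138 and 120 in the E13.5 heterozygous and knockout lists, 585 and 581 in the corresponding E16.5 lists, 819 in the P0 list and 430 in the P3 list. The rule rests on position alone and on no measured value. It took in 1420 receptor genes on 18 autosomes, 1104 of them protein coding and 316 pseudogenes or other types, in windows of 22.7 Mb, or 0.930% of the autosomal span. Windows separated by under 100 kb were joined into 85 clusters.

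The study compared Morc1 (+/-) with Morc1 (-/-) gonocytes, which are male germ cells before and shortly after birth. All animals carried the Mvh-Venus reporter, a fluorescent protein driven by a germ cell promoter, and the heterozygotes served as controls. Testes of E13.5 and E16.5 embryos (named by embryonic day) and of pups on postnatal days 0 and 3 (P0, P3) supplied the cells, with 2 samples in each of the 8 groups. 1 peak list was deposited per group, so no value has a spread between replicates and no test between groups could be made. The lists filed under the 2 genotypes at P0 were row-for-row copies of each other, as were those at P3, and each was used once with no genotype. Whether the cells express germ cell markers was not checked, since no expression was measured here. The lists hold positions only, without read counts or scores, so their depth is unknown. All 95% intervals below cover counting error over peaks and not the difference between animals or libraries, and a difference in number between lists cannot be told apart from a difference in depth or calling threshold.

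Olfactory receptors are G protein-coupled receptors of the olfactory epithelium and form the largest gene family of the mouse genome. Each olfactory neuron expresses a single allele of a single receptor gene, while the other receptor genes of that cell, and those of most other tissues, lie in compact chromatin with repressive histone methylation. Class I receptors occupy a large cluster on chromosome 7, and class II receptors lie in many clusters on chromosome 7 and on most other chromosomes. Intergenic enhancers within the clusters, bound in neurons by Lhx2 and Ebf factors, take part in receptor choice. Transcripts of some receptors are also known from testis.

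The receptor start sites in the RefSeq table of GRCm38.p6 (mm10 in the UCSC naming that the submitters give) are shown first, because few of them lay under a peak. The table held 942 start windows of 938 receptor genes, each running from 250 bases before the annotated start to 50 bases after it. The upstream 250 bases are printed 5′ to 3′ on the gene's strand. Olfr1349, a class II receptor (chr7:6515428-6515677, minus strand), had a peak over its start window in all 6 lists. All but the E13.5 heterozygous peak reached the bases shown. This annotated start lies inside the gene's outer bounds (chr7:6514199-6520355). Olfr976 (chr9:39961045-39961294, minus strand) had a peak in the E16.5 lists of both genotypes and at P0. Olfr599, in the class I cluster (chr7:103337762-103338011, plus strand), had a peak over its window in 2 lists, of which the P3 peak reached the bases shown. These 3 were the receptors with an annotated start outside the start codon and a peak in at least 2 lists. Olfr16 (MOR23, chr1:172956518-172956767, plus strand) and Olfr544 (chr7:102488308-102488557, minus strand) are well-studied receptors whose start windows held no peak in any list, printed for contrast. Capitals mark TATAAA on either strand (TTTATA where it lies on the opposite strand) and CCCNNGGG, the core of an Ebf site, and no printed stretch held TAATTA, the core of a LIM homeodomain site.
Olfr1349: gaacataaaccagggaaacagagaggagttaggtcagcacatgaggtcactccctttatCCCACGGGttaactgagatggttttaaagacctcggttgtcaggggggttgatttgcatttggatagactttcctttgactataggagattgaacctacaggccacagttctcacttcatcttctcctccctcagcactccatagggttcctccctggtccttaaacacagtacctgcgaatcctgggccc
Olfr976: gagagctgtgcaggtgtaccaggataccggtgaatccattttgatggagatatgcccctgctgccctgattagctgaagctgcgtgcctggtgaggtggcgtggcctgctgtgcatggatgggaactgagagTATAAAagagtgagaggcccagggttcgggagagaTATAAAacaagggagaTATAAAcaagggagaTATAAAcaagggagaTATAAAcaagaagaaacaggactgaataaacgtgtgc
Olfr599: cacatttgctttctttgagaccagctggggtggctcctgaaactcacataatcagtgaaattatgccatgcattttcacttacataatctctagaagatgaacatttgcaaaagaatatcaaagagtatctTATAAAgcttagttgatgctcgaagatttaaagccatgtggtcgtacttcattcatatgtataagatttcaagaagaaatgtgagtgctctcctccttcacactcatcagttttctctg
Olfr16: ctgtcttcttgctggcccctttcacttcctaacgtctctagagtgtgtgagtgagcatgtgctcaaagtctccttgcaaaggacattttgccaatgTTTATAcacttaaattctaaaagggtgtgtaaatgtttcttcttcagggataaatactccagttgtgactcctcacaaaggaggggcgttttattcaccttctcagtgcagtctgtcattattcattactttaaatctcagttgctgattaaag
Olfr544: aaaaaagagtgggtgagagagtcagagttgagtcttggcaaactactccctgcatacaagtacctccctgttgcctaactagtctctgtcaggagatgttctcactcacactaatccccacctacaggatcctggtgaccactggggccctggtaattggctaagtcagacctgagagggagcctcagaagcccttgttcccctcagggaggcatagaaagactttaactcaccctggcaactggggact

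Receptor starts were nearly devoid of peaks. At E13.5, 2 of the 942 receptor start windows (0.212%) overlapped a peak in the heterozygous list, against 38.7% of all 31396 autosomal start windows, and 2 did so in the knockout list, against 38.9%. The numbers were 10 (1.06%) in the E16.5 heterozygous list, where all windows gave 38.7%, and 9 (0.955%) in the E16.5 knockout list, where all windows gave 39.4%. At P0, 12 receptor windows (1.27%) overlapped a peak against 40.5% of all windows, and at P3 7 (0.743%) against 38.4%. In every list the receptor share was therefore far below that of start sites in general.

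The sequence of receptor starts also differed from that of other starts. The median receptor window held 1 CG dinucleotide and 35% G or C, against 7 CG and 53% over all windows, and other start windows with a peak in any list had a median of 20 CG. TATAAA on either strand was found in 41.1% of receptor windows and 13.6% of all windows, and TAATTA in 18.7% and 5.26%. CCCNNGGG was found in 3.08% of receptor windows and 13.9% of all windows, and the core of the CTCF motif in 0.212% and 2.47%. The 25 receptor windows with a peak in any list had a median of 3 CG, against 1 in the 917 without a peak, and 24% of them held TATAAA, against 41.6% of those without. These matches describe letters and not binding. For 631 of the windows the annotated start is the start codon itself, so these windows need not hold a promoter.

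Peak density in the receptor windows was far below that of the rest of the autosomes at E13.5 and equal to it or above it from E16.5 on. At E13.5 the heterozygous list had 6.08 peaks per Mb of receptor windows and 16.2 per Mb elsewhere, a ratio of 0.375 (95% interval 0.317 to 0.443), and the knockout list had 5.29 and 15.9 per Mb, a ratio of 0.333 (0.278 to 0.398). At E16.5 the heterozygous list had 25.8 and 21.1 per Mb (ratio 1.22, 1.12 to 1.32) and the knockout list 25.6 and 22.4 per Mb (ratio 1.14, 1.05 to 1.24). The P0 list had 36.1 and 26.2 per Mb (ratio 1.38, 1.28 to 1.48), and the P3 list 18.9 and 17.8 per Mb (ratio 1.06, 0.966 to 1.17). The excess at E16.5 rested on the largest cluster: without it the ratio was 1.04 (0.941 to 1.14) in the heterozygous list and 1.01 (0.92 to 1.11) in the knockout list, and at P0 it was 1.26 (1.16 to 1.36).

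Expressed as shares of all autosomal peaks, receptor windows of heterozygotes took 0.351% (0.297% to 0.414%) at E13.5 and 1.13% (1.04% to 1.23%) at E16.5, a 3.23-fold difference (2.68 to 3.88). In knockout cells the shares were 0.311% (0.260% to 0.372%) and 1.06% (0.978% to 1.15%), a 3.41-fold difference (2.80 to 4.15). The number of receptor peaks was 4.24 times higher at E16.5 than at E13.5 in heterozygous cells and 4.84 times higher in knockout cells, while the number of all autosomal peaks was 1.31 and 1.42 times higher. The P0 share was 1.28% (1.19% to 1.37%), 1.13 times that of E16.5 heterozygous cells (1.02 to 1.25). The P3 share was 0.987% (0.898% to 1.08%), 0.774 times that of P0 (0.689 to 0.869).

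Other sparsely accessible parts of the genome moved with the receptor windows. Windows around 357 vomeronasal receptor genes, the pheromone receptors of the vomeronasal organ, had a density ratio of 0.196 in heterozygotes at E13.5, then 0.706 (0.603 to 0.826) at E16.5 and 1.02 (0.908 to 1.15) at P0. Their share of peaks was 3.60 times higher at E16.5 than at E13.5 in heterozygous cells (2.47 to 5.24), an interval that contains the olfactory value. In 606 gene-poor windows of 1 Mb, which shared only 0.372% of the olfactory receptor window bases, the corresponding fold was 2.50 (2.42 to 2.59), below the olfactory interval. In knockout cells it was 2.45 (2.37 to 2.54), again below the olfactory interval of 2.80 to 4.15. The olfactory folds include the largest cluster. Without it the olfactory shares at E13.5 and E16.5 were 0.292% and 0.792% in heterozygous cells and 0.267% and 0.773% in knockout cells. Whether the olfactory fold then still exceeded that of gene-poor windows was not tested. The part played by the wider pattern of sparsely accessible sequence in the receptor values was not tested either.

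**Figure D1:**
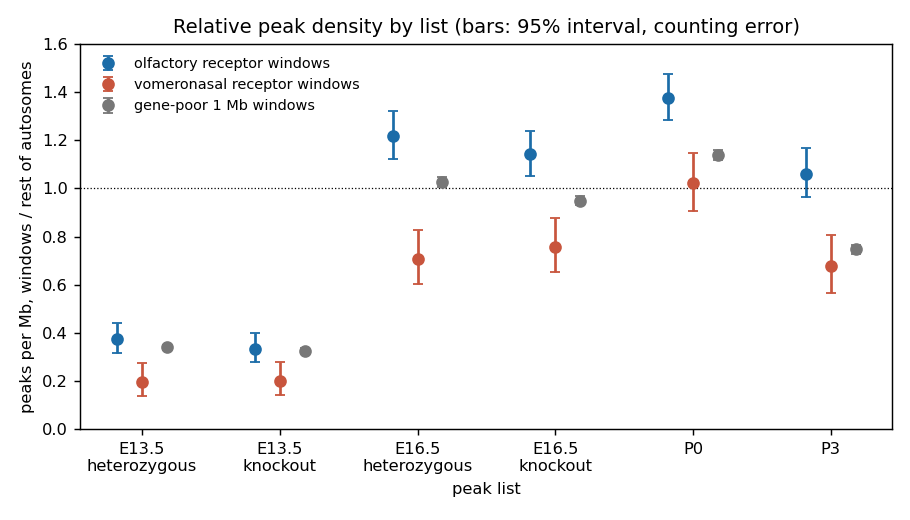
Peaks per Mb in olfactory receptor, vomeronasal receptor and gene-poor windows divided by peaks per Mb in the rest of the autosomes, for each of the 6 lists, with 95% intervals for counting error; the dotted line marks equal density. Olfactory receptor windows lie at 0.375 and 0.333 in the E13.5 lists and at 1.06 to 1.38 in the later lists, and the gene-poor and vomeronasal windows move the same way.

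The immediate surroundings of the clusters did not share the low E13.5 values. In the 500 kb on each side of every cluster, other clusters left out, there were 22.8 peaks per Mb in E13.5 heterozygous cells and 26.4 in E16.5 heterozygous cells. Receptor windows had 0.266 times the density of this flanking sequence in the E13.5 heterozygous list, 0.229 times in its knockout counterpart, 0.975 and 0.930 times in the E16.5 lists, 1.17 times at P0 and 0.819 times at P3. The flanks also hold ordinary genes: of their 1563 peaks in the E13.5 heterozygous list, 833 lay away from gene ends. The part of gene content in these ratios was not tested.

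The positions of the peaks within the windows differed between stages as well. Peaks within 1000 bp of an end of a gene without an Olfr symbol made up 21.7% (15.7% to 29.3%) of receptor-window peaks in the heterozygous list of E13.5 and 18.3% (12.4% to 26.2%) in its knockout counterpart. Their part was 8.55% (6.54% to 11.1%) and 9.12% (7.04% to 11.7%) in the E16.5 lists, 7.81% (6.17% to 9.86%) in the P0 list and 11.2% (8.52% to 14.5%) in the P3 list. Of all positions in the windows where a peak of the deposited width could lie, 2.67% lie at such ends, so that these other genes took more than their part of peaks in every list. Receptor gene ends took 16.2% to 19.2% of peaks in the 6 lists, below the 22.4% of positions that lie there, although the intervals of the E13.5 lists (12.6% to 25.4% and 12.4% to 26.2%) include that value. The median protein-coding receptor gene is 950 bp long, so the receptor gene-end class takes in the whole body of a typical receptor. Sites between genes took 55.1% and 60.0% of peaks at E13.5 and 65.8% to 72.0% in the later lists, against 69.1% of positions. With peaks and sequence within 1 kb of any gene end set aside on both sides of the comparison, the density ratio was 0.419 and 0.397 in the E13.5 lists, 1.55 (1.41 to 1.70) and 1.40 in the E16.5 lists, 1.64 (1.52 to 1.78) in the P0 list and 1.35 in the P3 list.

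In the E16.5, P0 and P3 lists, peak centres were sparsest just beside receptor genes and denser both inside them and far from them. In the E16.5 heterozygous list there were 31.1 peak centres per Mb inside receptor genes (24.5 to 38.9), 8.92 per Mb at 1 to 1000 bp from the nearest receptor gene (5.78 to 13.2), 22.0 per Mb at more than 1000 and up to 2000 bp (16.8 to 28.3) and 30.2 per Mb at more than 5000 and up to 10000 bp (26.4 to 34.4). The E16.5 knockout list gave 32.7, 8.57, 23.1 and 29.0 per Mb at the same distances. At P0 the values were 52.7 inside (44.0 to 62.7), 12.1 at 1 to 1000 bp (8.40 to 17.0) and 40.8 at the farthest distance. At P3 they were 25.8, 6.78 and 23.0. In the E13.5 heterozygous list, with 14 centres inside receptor genes, the densities inside and beside the genes were 5.72 (3.13 to 9.6) and 2.86 per Mb (1.23 to 5.63), intervals that overlap. In the E13.5 knockout list they were 4.91 (2.54 to 8.57) and 1.78 per Mb (0.580 to 4.16), with 5.50 per Mb at more than 1000 and up to 2000 bp.

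Peaks inside genes were placed relative to the coding sequence where the gene models allowed it. Most olfactory receptors are encoded by a single uninterrupted coding exon, and 631 receptor models run from a start codon with a length divisible by 3 and under 1500 bp (median 942 bp). These models are coding sequence from end to end, so a centre inside them is in coding sequence by construction, and peaks inside other receptor genes were not placed. Peak centres fell in these coding sequences 6 times in the heterozygous and 4 times in the knockout list of E13.5, 29 and 31 times in the E16.5 heterozygous and knockout lists, 49 times at P0 and 22 times at P3. The 1000 bp before and after these genes together held 0, 0, 7, 7, 7 and 4 centres in the same lists, where the upper Poisson bound of a count of 0 is 2.92 per Mb. At P0 this came to 82.0 centres per Mb of coding sequence (60.6 to 108) against 5.55 per Mb of flank (2.23 to 11.4). In E16.5 heterozygous cells it came to 48.5 (32.5 to 69.6) against 5.55. The middle of the coding sequence held the most: with each gene cut into 3 equal stretches from start to stop, the P0 centres numbered 5, 34 and 10, the E16.5 heterozygous centres 3, 18 and 8, and the E16.5 knockout centres 4, 21 and 6. Coding sequences of receptors resemble one another, and how reads that match several places were handled is not given in the sources used here, so the part of such reads in these peaks was not tested.

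**Figure D2:**
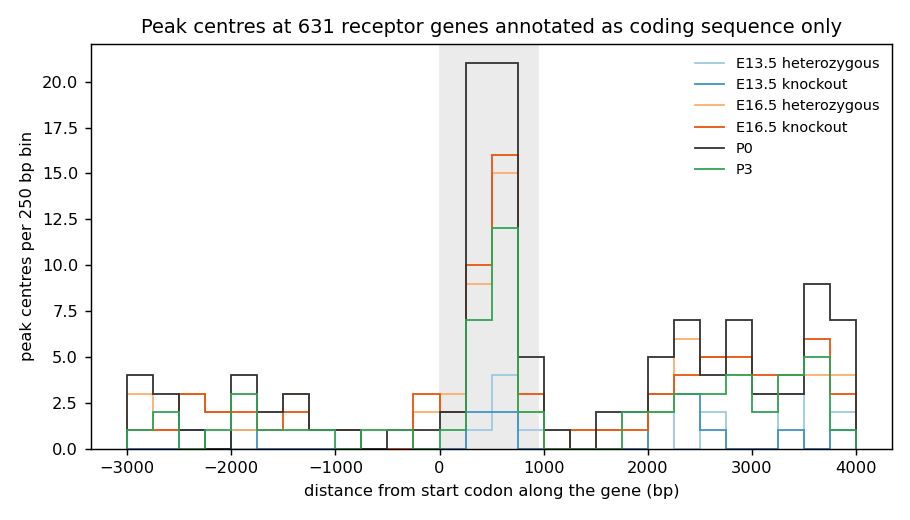
Number of peak centres per 250 bp bin against the distance from the start codon, in the direction of the gene, for 631 receptor genes annotated as coding sequence only, 1 line per list; the grey band is the median coding length of 942 bp. Centres of the E16.5, P0 and P3 lists gather within the band, 49 at P0, and are few in the 1000 bp on either side, 7 at P0.

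Of the 631 genes, 62 (9.83%) had a peak centre in the coding sequence in any list. They belonged to 49 of 180 receptor families and lay in 26 clusters, and the family with most of them, MOR256, had 7 of its 31 genes among the 62. Both genotypes at E16.5 and the P0 list had a centre in 19 genes: Olfr94, Olfr95, Olfr982, Olfr398, Olfr368, Olfr1231, Olfr455, Olfr304, Olfr571, Olfr959, Olfr796, Olfr139, Olfr31, Olfr123, Olfr1491, Olfr362, Olfr1195, Olfr1264 and Olfr24. Of these, 13 also had a centre at P3. Olfr94 and its neighbour Olfr95 on chromosome 17 had one in all 6 lists, and Olfr982 on chromosome 9 and Olfr398 on chromosome 11 in all but the E13.5 knockout list. For 16 genes the P0 list was the only one with a centre.

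Counted over genes, peaks at receptor gene ends were uncommon in every list. For a typical receptor, with a median length of 950 bp, a gene-end peak can lie in the gene body, whereas in long genes the class leaves out the middle. At P0, 129 peak centres lay inside receptor genes and 34 at 1 to 1000 bp from one. A peak within 1000 bp of an end was found for 25 of 1420 receptor genes (1.76%) in E13.5 heterozygous cells, against 35.6% of all autosomal genes, and for 22 (1.55%) in E13.5 knockout cells, against 35.7%. At E16.5 it was found for 95 (6.69%, against 37.9%) in heterozygous cells and 104 (7.32%, against 39.0%) in knockout cells. At P0 it was found for 158 (11.1%, against 42.3%) and at P3 for 77 (5.42%, against 36.9%). A peak anywhere within 10 kb was more frequent. At E13.5, 174 receptor genes (12.3%) had one in the heterozygous list, against 59.0% of all autosomal genes, and 147 (10.4%) in the knockout list, against 58.4%. In the E16.5 lists 596 (42%, against 63.3%) and 595 (41.9%, against 65.5%) had one, in the P0 list 788 (55.5%, against 69.7%) and in the P3 list 488 (34.4%, against 62.1%). The receptor share was thus below that of all genes in each list, and closest to it at P0. Neighbouring genes share such peaks, so these counts are not independent.

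The gene-end peaks concentrated on few receptors across lists. Of the 1420 genes, 1214 had none in any list, 82 had one in a single list and 8 had one in all 6: Olfr52 and the pseudogene Olfr1069-ps1 on chromosome 2, Olfr1349, Olfr310 and the pseudogene Olfr579-ps1 on chromosome 7, Olfr94 and Olfr95 on chromosome 17, and Olfr1419 on chromosome 19. A further 10 had one in 5 lists: Olfr1166, Olfr1254, Olfr48, Olfr1344, Olfr658, Olfr879-ps1, Olfr149, Olfr982, Olfr398 and Olfr286. By family number, Olfr658 was the class I gene among these 18, and Olfr879-ps1 had no given class. Olfr579-ps1 was labelled class II by this rule, although it lies in the mainly class I cluster from Olfr543 to Olfr650-ps1. Olfr335-ps and Olfr368 came next in the order used, with 4 lists each.

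Most receptors that have been studied in detail had no peak at their ends, as was true of receptor genes in general (1214 of 1420). Of 10 such genes, 7 (Olfr16, Olfr78, Olfr151, Olfr160, Olfr544, Olfr558 and Olfr1507) had no gene-end peak in any list. Each list had one for 1 or 2 of the 10, beside 1.55% to 11.1% of all receptor genes, and the difference was not tested. Olfr2 (I7, a receptor for aliphatic aldehydes) had one in both E13.5 lists and in the E16.5 heterozygous list. Olfr15 had one in the E16.5 knockout list, at P0 and at P3, and Olfr17 (P2) at P0 and P3. Around Olfr16 no peak lay within 10 kb in any list, whereas Olfr558, a class I receptor, had a peak within 10 kb in all 6.

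Genes of receptor choice and odour signalling and of heterochromatin were examined for comparison, beside the 35.6% to 42.3% of all autosomal genes that had a gene-end peak in the 6 lists. Of 21 such genes, 14, 12, 15, 15, 13 and 12 had a gene-end peak in the E13.5 heterozygous, E13.5 knockout, E16.5 heterozygous, E16.5 knockout, P0 and P3 lists. The difference from all genes was not tested. A peak was there in all 6 lists for 12 of them, among them Lhx2 (a LIM homeodomain factor of receptor enhancers), Ebf1 and Ebf4 (Ebf family factors), Lbr (the lamin B receptor), Kdm1a (a histone demethylase), Adcy3 (the adenylyl cyclase of odour transduction) and Gnal (its G protein subunit). None was found in any list for 5: Ldb1 (the Lhx2 cofactor), Cngb1 (a channel subunit), Omp (the marker of mature olfactory neurons) and the receptor transport genes Rtp1 and Rtp2. Of 8 heterochromatin genes, 7 (Cbx1, Cbx3, Cbx5, Suv39h2, Ehmt1, Setdb1 and Trim28) had a gene-end peak in all 6 lists and Ehmt2 in 3. Morc1 had one in all 6 lists, knockout lists included, so a peak at its ends does not check the genotype labels.

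Gene-end peaks were also counted for genes without an Olfr symbol inside the windows. These were taken by symbol and not by family, so pseudogenes of receptors under other names, such as Olrf445-ps1, can be among them. Of 212 such genes with an end in a window, 37, 28, 57, 57, 71 and 56 had a gene-end peak in the 6 lists, taken in the same order. Over all autosomal genes 35.6% to 42.3% had one. For the 43 protein-coding ones in the windows the counts varied less, at 11, 13, 14, 13, 16 and 13. A peak was present in all 6 lists for 18 genes, 8 of them protein coding: Ndufa10 (a subunit of mitochondrial complex I), Trim21 (an intracellular antibody receptor), the zinc finger genes Zfp202, Zkscan8 and Zfp174, Btnl9, Gm12258 and H2-M3 (a non-classical MHC class I gene). The others included the pseudogenes Gm13736, Gm8556 and Gm5053, the long noncoding RNA Gm39112 and 4 transfer RNA genes.

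Clusters differed widely in number of peaks. The largest, 284 genes from Olfr996 to Olfr1274 on chromosome 2 (chr2:85569215-90411674), had 23 and 17 peaks in the E13.5 heterozygous and knockout lists, 177 and 159 in the E16.5 lists, 206 at P0 and 79 at P3. The cluster of 127 genes from Olfr160 to Olfr986 on chromosome 9 had 18, 19, 94, 87, 112 and 55 in the same order. Both thus had many more peaks in the E16.5 and P0 lists than at E13.5. The 51 genes from Olfr24 to Olfr18, also on chromosome 9, had 2, 2, 39, 35, 53 and 33, and the 58 genes from Olfr90 to Olfr136 on chromosome 17 had 10, 9, 44, 45, 47 and 36. The 69 genes from Olfr9 to Olfr827 on chromosome 10 had 5, 5, 17, 19, 28 and 13. The 47 genes from Olfr1275 to Olfr1319-ps1 on chromosome 2 had 2, 3, 14, 16, 21 and 14. In each of these 4 clusters, too, both E16.5 lists and the P0 list had more peaks than either E13.5 list, and P0 had the most.

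Clusters on chromosomes 19 and 11, also among the 10 largest, likewise had more peaks at E16.5 than at E13.5 and the most at P0. The 62 genes from Olfr1444 to Olfr1505 on chromosome 19 had 1 and 0 peaks at E13.5, 10 and 18 in the E16.5 heterozygous and knockout lists, 34 at P0 and 12 at P3. The 44 genes from Olfr20 to Olfr412 on chromosome 11 had 2, 1, 8, 5, 16 and 5. The 52 genes from Olfr467 to Olfr519 on chromosome 7 departed from this course, with 4, 4, 3, 6, 13 and 14 peaks and the most at P3. The highest density of merged regions among clusters of at least 10 genes, 90.7 per Mb of windows, was in the 18 genes from Olfr310 to Olfr292 on chromosome 7, with 4, 4, 19, 18, 26 and 10 peaks.

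**Figure D3:**
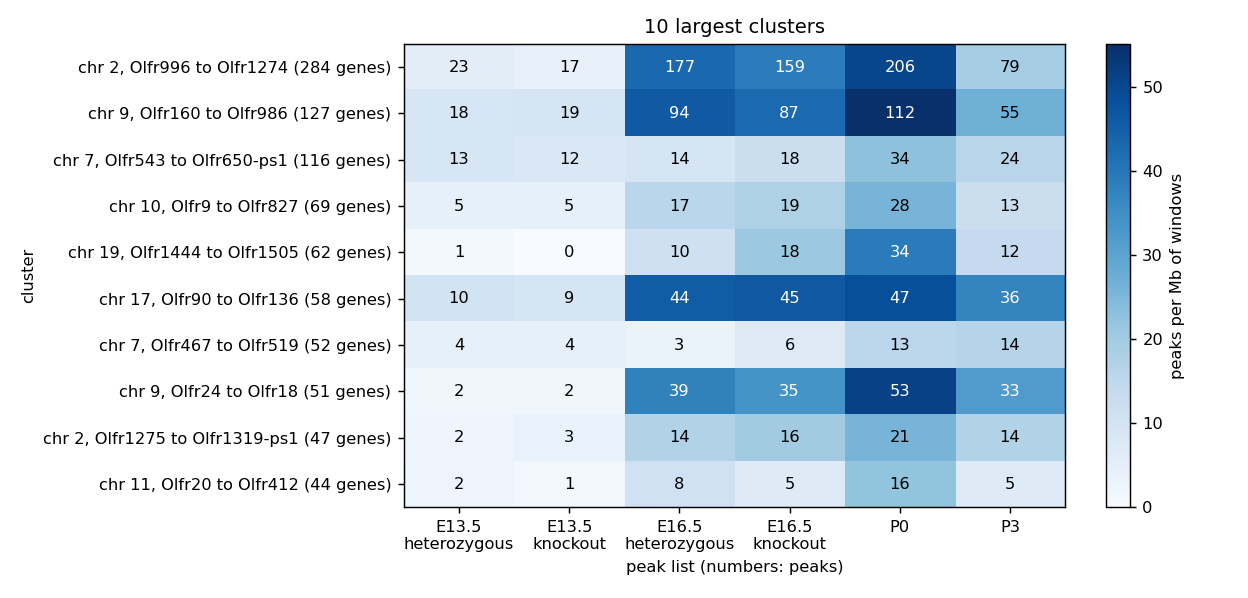
Peaks per Mb of windows (colour) and number of peaks (figures in the cells) in each of the 6 lists for the 10 clusters with the most receptor genes. The largest chromosome 2 cluster, both chromosome 9 clusters and the chromosome 17 cluster had 35 to 206 peaks in the E16.5 and P0 lists, while the chromosome 7 clusters stay pale at E16.5, with 3 to 18 peaks.

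Of the 26 clusters with at least 10 genes, which hold 1253 of the receptor genes, 21 had more peaks at E16.5 than at E13.5 in heterozygous cells, 4 had fewer and 1 had the same number. The same numbers of clusters were found in knockout cells. P0 had more peaks than the E16.5 heterozygous list in 25 of the 26 and the same number in 1, and more than P3 in 21, fewer in 3 and the same number in 2. No cluster of that size was without a peak over all lists, whereas 15 of the smaller ones were.

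The class I clusters of chromosome 7 differed from the others at E16.5. The cluster of 116 genes from Olfr543 to Olfr650-ps1, mainly class I, had 13, 12, 14, 18, 34 and 24 peaks over the 6 lists. Over the 3 clusters with at least 10 genes and a class I majority (158 genes, 145 of them class I), there were 17 and 14 peaks in the E13.5 lists, 20 and 29 in the E16.5 lists, 49 in the P0 list and 34 in the P3 list. The E16.5 to E13.5 fold in number was 1.2 (0.623 to 2.22) in heterozygous cells and 2.07 (1.11 to 3.88) in knockout cells, against 4.67 (3.84 to 5.68) and 5.21 (4.23 to 6.41) in all other clusters, whose intervals do not overlap those of class I. The density in E16.5 heterozygous cells was 9.30 per Mb (5.68 to 14.4) in class I clusters and 27.5 per Mb (25.3 to 29.8) in the others pooled. Single clusters among the others varied widely. The largest had 43.2 per Mb, and the chromosome 11 clusters from Olfr20 to Olfr412 and from Olfr30 to Olfr311 had 11.0 and 5.50. The median over all 26 clusters of at least 10 genes was 11.1 per Mb, so a low density was not particular to class I.

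Chromosome 7 moved with this difference. Its other receptor clusters had a fold of 2.06 (1.16 to 3.65) in heterozygous cells and 1.67 (0.976 to 2.84) in knockout cells, intervals that overlap those of class I, so that receptor class and chromosome cannot be told apart here. Outside the receptor windows chromosome 7 had 1.26 and 1.33 times as many peaks at E16.5 as at E13.5, within the range of the other autosomes (0.756 on chromosome 11 to 1.80 on chromosome 14 in heterozygous cells). The class I clusters lie beside dense peaks, but this was not particular to them. Among heterozygotes, the 500 kb flanks of class I clusters held 31.7 peaks per Mb at E13.5 (23 to 42). The flanks of all clusters with at least 10 genes held 26.7, and those of the other chromosome 7 clusters 26.5. The E16.5 values, taken in the same order, were 26.2 (19 to 36), 29.7 and 29.3. At both stages the class I interval includes the other values. The comparison of classes was chosen after the values had been seen.

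**Figure D4:**
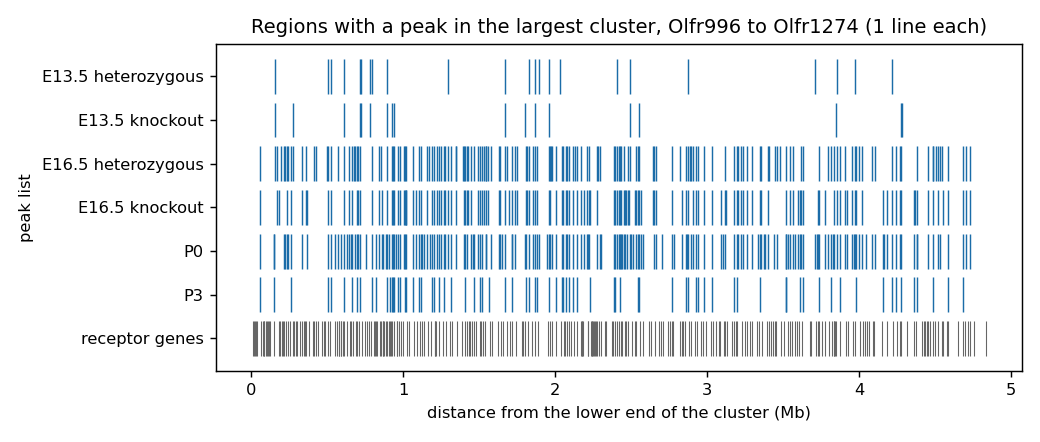
Regions with a peak along the largest cluster, Olfr996 to Olfr1274, 1 line per region and 1 row per list, with the 284 receptor genes in the lowest row; the x axis is the distance from the lower end of the cluster in Mb. The E13.5 rows are sparse, with 23 and 17 peaks, and peaks of the E16.5 and P0 lists, 159 to 206, are spread along the whole cluster.

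When overlapping peaks of the 6 lists were merged, the windows held 1076 regions. Of these regions, 900 (83.6%) were absent from both E13.5 lists, against 54.1% of merged regions elsewhere on the autosomes. The most frequent stage pattern was E16.5, P0 and P3 without E13.5, with 229 regions (21.3%, 18.9% to 23.8%) against 11.6% of merged regions elsewhere on the autosomes. P0 alone followed with 220 (20.4%, against 12.4%) and E16.5 with P0 with 211 (19.6%, against 11.1%). Regions of E16.5 alone numbered 140 (13%, 11.1% to 15.2%), an interval that includes the 12% found elsewhere. Regions seen at all 4 stages numbered 92 (8.55%, 7.02% to 10.4%), against 20.2% elsewhere, and E13.5-only regions 44 (4.09%, 3.06% to 5.44%), against 15.8% elsewhere. Relative to the rest of the autosomes, stage-wide and E13.5-only regions thus had smaller shares in the receptor windows. The 3 most frequent patterns, all of which include P0, had larger shares. These differences lie outside the counting intervals. The shares are parts of a whole, so a smaller share of regions with E13.5 by itself raises those of the other patterns. Whether any pattern differed among regions absent from E13.5 was not tested.

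**Figure D5:**
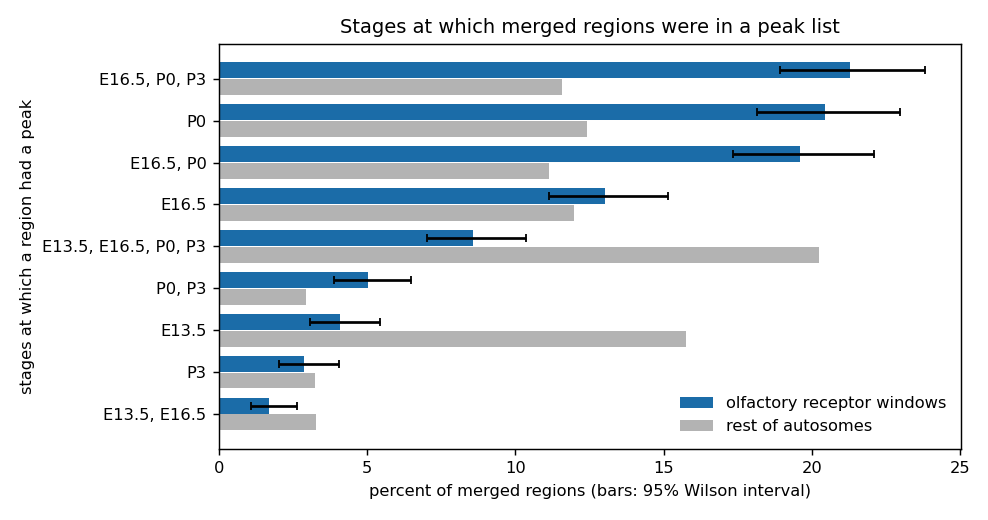
Percent of merged regions with each combination of stages, for the 1076 regions in receptor windows (blue, with 95% Wilson intervals) and for merged regions elsewhere on the autosomes (grey). The receptor bars exceed the grey ones for E16.5, P0 and P3 (21.3% against 11.6%) and fall below them for all 4 stages (8.55% against 20.2%) and for E13.5 alone (4.09% against 15.8%).

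All 6 lists shared 43 of the 1076 regions, whereas elsewhere on the autosomes 16.6% of merged regions were in all 6. Of these, 17 lay at an end of another gene, 9 at a receptor gene end, 16 between genes and 1 inside another gene. Those at receptor gene ends included chr2:86179685-86180453, 1081 bp from Olfr52, chr7:6514919-6515513 within Olfr1349, chr7:86267435-86268008, 1009 bp from Olfr310, and chr9:18813420-18814422, 1433 bp from Olfr828. Those between genes included chr2:86283510-86284232, 7386 bp from Olfr1051, chr6:41761555-41762226, 9463 bp from Olfr459, chr7:86342420-86343515, 6573 bp from Olfr307, chr9:37932389-37933002, 8522 bp from Olfr879-ps1, chr9:38781570-38782106, 5484 bp from Olfr921, and chr10:129025972-129026599, 7575 bp from Olfr764-ps1. Among those at other gene ends, chr7:102565229-102565826 lay at an end of Trim21 and chr1:92473517-92474213 at an end of Ndufa10, and chr7:102512861-102513446, chr7:108529760-108530376 and chr7:140676024-140676628 lay at ends of other genes without an Olfr symbol. Coordinates are those of the deposited lists, counted from 1. Distances run from the centre of a region, whereas the position class needs only an edge of the region within 1000 bp of a gene end.

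Of the 44 regions seen at E13.5 alone, 18 were in both genotypes, 14 in heterozygous cells and 12 in knockout cells. In the largest cluster, chr2:86293045-86293677 (4457 bp from Olfr1052) and chr2:86351935-86352605 (3089 bp from Olfr1056) were in both, chr2:87460758-87461258 and chr2:87600282-87600782 in the heterozygous list, and chr2:87371927-87372427, which overlaps Olfr1121, in the knockout list. The 31 P3-only regions included chr2:86484111-86484611 beside Olfr228, chr2:87131267-87131767 between genes, and chr9:38880074-38880574, chr9:38939751-38940251 and chr9:38954069-38954569 near Olfr926, Olfr931-ps1 and Olfr932-ps1.

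Most receptor peaks recurred at another stage. In E13.5 heterozygous cells 76.8% of them were found in a list of another stage, against 69.6% of all peaks of that list, and in E13.5 knockout cells 75.0% against 70.7%. The shares were 83.4% against 85.2% and 85.9% against 84.9% in E16.5 heterozygous and knockout cells, 73.1% against 79.4% at P0 and 92.8% against 92.4% at P3. Since the windows held 138 peaks at E13.5 and 585 at E16.5 in heterozygotes, shares found in the shorter list are bounded by its length. Of E16.5 heterozygous receptor peaks, 14.9% were in the E13.5 heterozygous list, against 43.3% of autosomal peaks outside the windows, whereas 78.6% were at P0, against 77.8%. In the other direction, 63.0% (54.7% to 70.6%) of E13.5 heterozygous receptor peaks were in the E16.5 heterozygous list, against 56.5% outside the windows, a value within the interval. Of P0 receptor peaks, 10.3% were in the E13.5 heterozygous list (35.0% elsewhere) and 45.7% at P3 (56.8% elsewhere).

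Genotype was compared at E13.5 and E16.5. At E13.5, 38 of 120 receptor peaks of knockout cells (31.7%, 24.0% to 40.4%) were missing from the heterozygous list, against 19.6% of all knockout peaks, and 55 of 138 heterozygous peaks (39.9%, 32.1% to 48.2%) were missing from the knockout list, against 21.3% of all heterozygous peaks. Both shares exceeded the value over all peaks by more than counting error. Among peaks away from gene ends, the receptor share was 32.9% (25 of 76) against 26.6% for knockout-only peaks. For heterozygous-only peaks it was 39.8% (33 of 83) against 29.2%. No intervals were computed for these shares, so whether they exceed counting error was not tested. At E16.5, 136 of 581 knockout peaks (23.4%, 20.2% to 27.0%) were knockout-only, against 23.5% of all, and 138 of 585 heterozygous peaks (23.6%, 20.3% to 27.2%) were heterozygous-only, against 18.6% of all. Away from gene ends the E16.5 values were 23.1% against 28.3% and 24.1% against 23.3%.

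The balance between genotypes was also compared with that of the autosomes as a whole. At E16.5 the windows had 0.986 knockout-only peaks for each heterozygous-only peak (0.778 to 1.25), and the autosomes 1.32 (1.28 to 1.35). This difference rested on the largest cluster: without it the windows had 108 knockout-only and 94 heterozygous-only peaks, a ratio of 1.15 (0.872 to 1.51), an interval that includes the autosomal value. At E13.5 the ratio was 0.691 (0.458 to 1.04) in the windows, an interval that includes the 0.907 of the autosomes. By cluster, the E16.5 knockout list had more peaks than the heterozygous list in 14 of the 26 clusters with at least 10 genes, fewer in 7 and the same number in 5. The largest cluster had 28 knockout-only and 44 heterozygous-only peaks at E16.5, the 127-gene cluster of chromosome 9 had 13 and 20, and the chromosome 19 cluster from Olfr1444 to Olfr1505 had 11 and 3. At E13.5, the knockout list had more in 6, fewer in 10 and the same number in 10. Because each genotype has a single list per stage, these differences have not been compared with the difference between animals of the same genotype.

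Peaks of a single genotype were looked up in the lists of the other stages. Of the 136 knockout-only peaks at E16.5, 92 (67.6%, 59.4% to 74.9%) overlapped a list of another stage, and of the 138 heterozygous-only peaks 78 (56.5%, 48.2% to 64.5%). Over all peaks of these lists 63.4% of knockout-only and 57.3% of heterozygous-only peaks recurred, both within the intervals of the receptor values. Shared receptor peaks recurred in 91.5% of knockout and 91.7% of heterozygous cases, against 91.6% of all shared peaks. At E13.5, 68.4% (52.5% to 80.9%) of knockout-only receptor peaks were found at another stage, against 46.0% of all knockout-only peaks, and 74.5% (61.7% to 84.2%) of heterozygous-only ones, against 43.7%. These 2 receptor shares exceeded the values over all peaks by more than counting error, on 38 and 55 peaks. Shared receptor peaks of E13.5 recurred in 78.0% to 78.3% of cases, against 76.6% of all shared peaks. Some regions followed genotype at both stages, but how often merged regions elsewhere on the autosomes did so was not counted. In the 2 knockout lists and neither heterozygous list there were 3 regions: chr7:103792744-103793346, 1215 bp from Olfr67, chr7:108542388-108542954, 1856 bp from Olfr503, and chr10:130026945-130027495, 6408 bp from Olfr821. The last 2 were also in the P0 and P3 lists.

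The reverse, both heterozygous lists and neither knockout list, held for 6 regions. These were chr2:111591997-111592506 beside Olfr1296-ps1, chr4:118741512-118742040 near Olfr1339, chr7:104994822-104995487 beside Olfr672, chr7:108202739-108203302 near Olfr487, chr14:51063397-51064026 near Olfr750 and chr19:12011332-12012053 near Olfr1421-ps1. All 6 were in at least 1 of the P0 and P3 lists.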

How the data were processed

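ATAC-seq was made from 16 samples in 8 groups. The authors deposited 1 peak list per group, per the file contents: chromosome, start and end of 501 bp peaks, with no score. The submitters' processing notes name mm10, bcl2fastq 2.20, cutadapt 1.18, Bowtie2 2.3.4.1, deepTools 3.5.0 and HOMER 4.10, with no role or order. The calling threshold, the treatment of duplicate and multi-mapped reads and the pooling of samples are not given in the sources used here. Lists were read into 1-based coordinates and compared with RefSeq genes of GRCm38.p6. Peaks sharing at least 1 bp were counted as overlapping, and gene ends are 1000 bp on each side of an outer gene bound.

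Densities count peaks per Mb. Shares and ratios carry 95% Wilson intervals, and counts per Mb exact Poisson intervals. A gene's class was taken from its MOR family number (class I up to 42, except family 0, which was counted as class II). Python 3.11.15, numpy 2.4.6, scipy 1.17.1 and pandas 2.3.3 were used, and counts were checked against bedtools 2.31.1. In simulated data 200 of 200 and 700 of 700 peaks placed in the windows of the E13.5 heterozygous list were recovered.

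The members and gene lists were chosen with earlier results of these data known. Named items follow a rule: the 10 largest clusters and the densest, regions in all 6 lists (up to 15) or following genotype at both stages, up to 5 regions each of E13.5 and P3 alone, up to 20 receptors with gene-end peaks in at least 4 lists, up to 10 other genes with gene-end peaks in all 6 lists (Zfp174 and H2-M3 were added after their values were seen, to name every protein-coding one), and fixed lists of studied receptors, signalling and heterochromatin genes. The coding-sequence profile with its length limit, the cluster flanks, the class and chromosome comparisons and the printed sequences were chosen after values had been seen. The ratio of genotype-only peaks without the largest cluster was added after the data were seen. Alternatives changed the windows, the overlap rule, the gene set and the gene-end distance.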

Additional observations from a re-analysis of the deposited data

How the results depend on the processing

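Of 134 recomputed values, 74 moved by less than their counting interval and 60 by more. Without the 10 kb flank, the shares of autosomal peaks were 0.0407% and 0.0363% in the E13.5 heterozygous and knockout lists, 0.157% and 0.155% in the E16.5 lists, 0.212% in the P0 list and 0.151% in the P3 list, and the density ratios 1.57, 1.56, 2.13 and 1.52 in these last 4 lists. Without the flank, knockout-only and heterozygous-only shares were 42.9% and 50% in the E13.5 comparison, 32.9% and 28.4% in the E16.5 comparison, and recurrence at another stage was 87.5% and 85.7% in E13.5 heterozygous and knockout cells, 78.8% in E16.5 knockout cells, 66.9% at P0 and 95.5% at P3. Whole clusters gave shares of 0.455%, 0.407%, 1.37%, 1.31%, 1.6% and 1.24% over the 6 lists. Without peaks near ends of other genes, the shares were 0.416%, 0.390%, 1.45%, 1.34%, 1.59% and 1.30%, and the density ratios 0.401 in E13.5 knockout cells, 1.51, 1.39, 1.66 and 1.35 in the 4 later lists. Without the largest cluster, the shares were 0.292% in E13.5 heterozygous cells, 0.792%, 0.773%, 0.959% and 0.807% in the 4 later lists, and the density ratios 1.04 and 1.01 at E16.5 and 1.26 at P0. Protein-coding receptors alone gave shares of 0.990%, 0.947%, 1.11% and 0.861% in the 4 later lists. A reciprocal overlap of 50% gave 27.4% heterozygous-only peaks at E16.5 and recurrences of 79.5% and 82.8% at E16.5 and 89.5% at P3. Gene ends of 500 bp gave receptor-end shares of 10.9%, 11.7%, 12.7%, 13.6%, 14.8% and 13.7% over the 6 lists, and other-end shares of 6.37% in E16.5 knockout cells and 5.86% at P0. Counting peaks within 500 bp as shared moved none of 10 values beyond its interval.

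No paired analysis was possible because the lists carry no replicate numbers. Leaving out a replicate and a stricter threshold were not run, since the lists hold neither samples nor scores. Depth is unknown, and with small numbers of peaks at E13.5 (138 and 120) the intervals there are wide.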

Other observations

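Pseudogenes of the receptor family also held peak centres. At P0 there were 55.2 centres per Mb inside protein-coding receptor genes (117 centres) and 37.8 per Mb inside receptor pseudogenes and other types (12 centres). In E16.5 heterozygous cells the values were 32.6 (69 centres) and 22.1 per Mb (7 centres), and at P3 26.0 (55 centres) and 25.2 (8 centres). The pseudogene counts are small, and the differences were not tested. On the X chromosome, left out of the rule, 8 receptor genes with windows of 0.167 Mb had a single peak over the 6 lists, in E16.5 heterozygous cells.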
